A study of Mus musculus with 8 samples.

Results

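MiR-7a-5p and miR-7b-5p are the mature products of the mouse miR-7 genes. They were taken as the rows of 8 Agilent arrays whose gene name is mmu-miR-7a-5p or mmu-miR-7b-5p and that are not controls, which gave 2 of the 1881 miRNAs on the array, each with 2 probes. The pair was chosen by its measured levels, the agreement of its probes and its LPS against sham difference on these same arrays, so that difference is given below as a description, without a test. MicroRNA levels were measured in 4 kidney samples labelled LPS-AKI model and in 4 labelled sham model. As a model of septic acute kidney injury, the LPS mice had been injected intraperitoneally with lipopolysaccharide, an outer-membrane component of Gram-negative bacteria, dosed by body weight (10 µg/g), and their kidneys were taken 24 h afterwards. Sham mice had been given normal saline instead. Strain, sex and age are not given in the sources used here, and the labels do not say whether each sample came from its own mouse, so standard errors and p-values measure only the spread between these samples. The samples are whole pieces of kidney of 30 mg, in which a change in the number of cells of a type and a change in the amount of RNA per cell cannot be told apart.

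A miRNA guides the silencing complex to messenger RNAs that pair with its seed, bases 2 to 8 from the 5′ end. MiR-7 is an ancient miRNA best known from neurons and from endocrine cells such as those of the pancreatic islet. In brain it is bound by the circular RNA Cdr1as, and the long non-coding RNA Cyrano promotes its breakdown.

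MiR-7a-5p and miR-7b-5p share a seed and differ by very little elsewhere, which matters for what the probes can tell apart. The sequences below are those of RefSeq on GRCm38.p6, with the seed of the 5p arms in capitals. No other mature miRNA of that table has this seed.
miR-7a-5p: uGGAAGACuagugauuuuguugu
miR-7b-5p: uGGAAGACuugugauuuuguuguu
Counted from the 5′ end, miR-7b-5p carries 1 substitution relative to miR-7a-5p, A10U, outside the seed, and its listed sequence is 24 rather than 23 bases long.

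MiR-7a-5p is made from 2 genes, Mir7-1 and Mir7-2, and miR-7b-5p from Mir7b. The hairpins are shown because the identical 5p arm of Mir7-1 and Mir7-2 leaves only their 3p arms to separate them. Capitals mark the mature arms.
Mir7-1: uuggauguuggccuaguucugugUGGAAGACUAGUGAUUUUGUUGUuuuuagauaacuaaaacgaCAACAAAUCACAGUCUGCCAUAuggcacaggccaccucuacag
Mir7-2: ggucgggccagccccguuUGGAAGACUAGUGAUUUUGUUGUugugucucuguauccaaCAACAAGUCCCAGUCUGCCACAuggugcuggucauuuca
Mir7b: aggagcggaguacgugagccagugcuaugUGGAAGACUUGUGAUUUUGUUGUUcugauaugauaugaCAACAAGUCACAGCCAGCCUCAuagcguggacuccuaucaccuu
On GRCm38.p6, Mir7-1 lies at chr13:58392779-58392886 on the minus strand, within the span of Hnrnpk, which encodes a ribonucleoprotein that binds messenger RNA. Mir7-2 lies at chr7:78888277-78888373 and Mir7b at chr17:56242988-56243098, both on the plus strand, and neither lies within the span of another gene of the RefSeq table.

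The array's probes are DNA, complementary to the miRNAs. The probe base that pairs with position 10 of the miRNA, the position of the substitution, is in capitals.
A_54_P2659 for miR-7a-5p: acaacaaaatcacTagtcttcc
A_54_P2658 for miR-7a-5p: acaacaaaatcacTagtcttc
A_54_P2663 for miR-7b-5p: acaacaaaatcacAagtcttcc
A_54_P2664 for miR-7b-5p: acaacaaaatcacAagtcttcca
The longer miR-7a-5p probe pairs with bases 2 to 23 and the shorter one with bases 3 to 23, so the shorter probe lacks the first base of the seed. The miR-7b-5p probes pair with bases 2 to 23 and 1 to 23. A_54_P2659 and A_54_P2663 cover the same positions and differ at the capital base alone. On mm9, the build of the array files, the longer miR-7a-5p probe is mapped to chr7:86033182-86033203 and to chr13:58494164-58494185, and A_54_P2663 to chr17:56382442-56382462, an interval that the files give 1 base shorter than the probe.

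MiR-7a-5p was detected on all 4 LPS and all 4 sham arrays and stood 2.03-fold higher in LPS kidneys. Detection on an array required at least 1 probe with over 50% of its spots well above background. MiR-7b-5p was detected on 0 LPS and 0 sham arrays, so no fold can be given for it.

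On the longer miR-7a-5p probe, the background-subtracted signal was 92.6, 105, 94.6 and 84.0 intensity units on LPS replicates 6, 10, 11 and 12, against 36.2, 46.1, 46.0 and 45.4 on sham replicates 5, 6, 7 and 8. Every LPS array was brighter than every sham array. All 55 LPS spots and all 57 sham spots used for this probe were well above background.

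The shorter miR-7a-5p probe gave 28.8, 33.3, 27.8 and 27.3 intensity units on LPS replicates 6, 10, 11 and 12, against 13.7, 14.8, 16.2 and 11.9 on sham replicates 5, 6, 7 and 8. The groups did not overlap here either, but sham kidneys were below the detection limit on this probe. Of its spots, 58 of 59 were well above background in LPS kidneys, against 3 of 57 in sham kidneys. The dimmest probe counted as detected on each array gave 16.8 to 19.5 intensity units on LPS arrays and 16.6 to 20.4 on sham arrays.

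**Figure D1:**
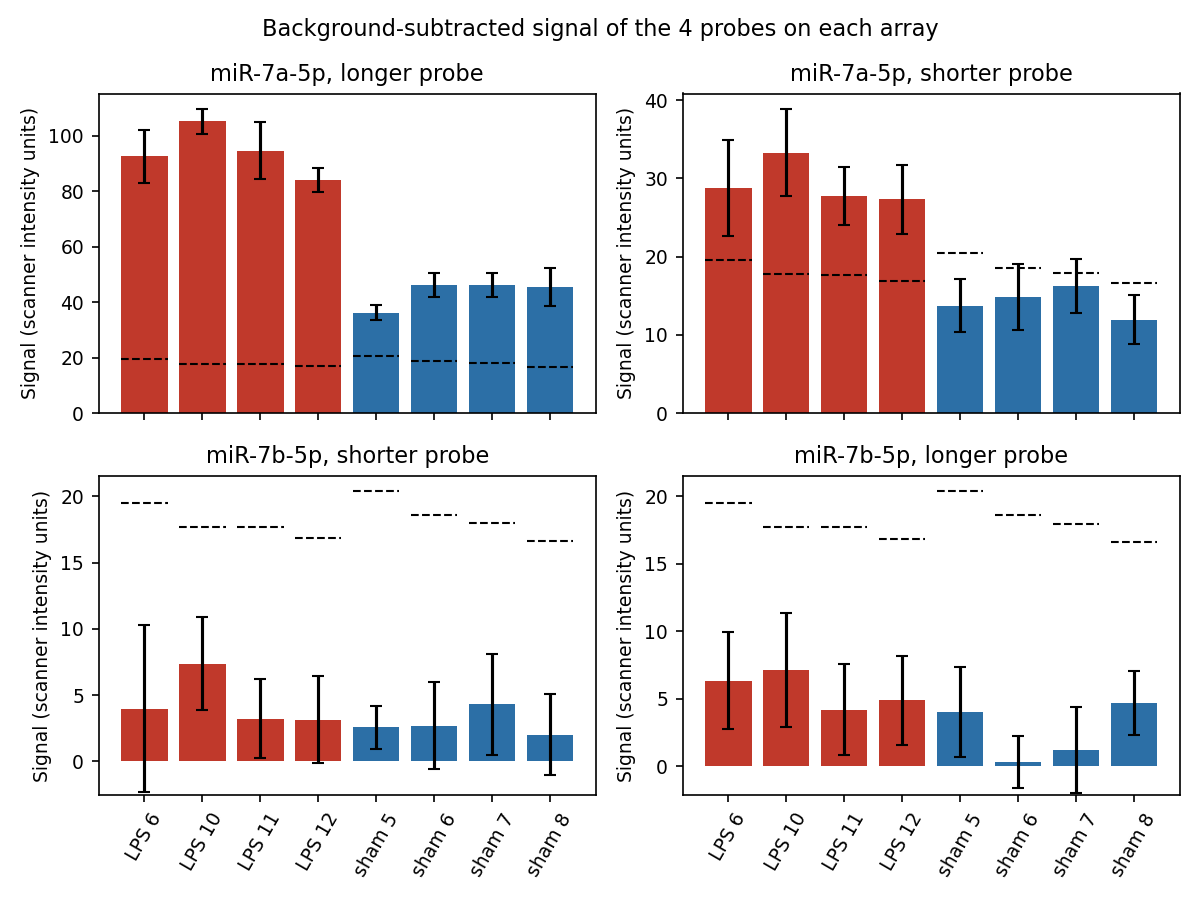
Background-subtracted signal in scanner intensity units (vertical axis) of the miR-7a-5p and miR-7b-5p probes on each array (horizontal axis, LPS in red, sham in blue); bars are means over spots, error bars the SD over spots, and dashed lines the dimmest probe counted as detected on that array. The longer miR-7a-5p probe lies above the line throughout, at 84.0 to 105 on LPS and 36.2 to 46.1 on sham arrays, whereas neither miR-7b-5p probe reaches it on any array.

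Scaled to the 75th percentile of each array and summed over its probes, the log2 level of miR-7a-5p was -2.07, -1.96, -2.11 and -2.15 on LPS replicates 6, 10, 11 and 12, against -3.27, -2.95, -3.03 and -3.13 on sham replicates 5, 6, 7 and 8. The gap between the groups exceeded the range within either. The mean level was -2.07 ± 0.08 in LPS and -3.09 ± 0.14 in sham kidneys (SD, n = 4 each), a log2 difference of 1.02 ± 0.08 (SE) with a 95% interval from 0.84 to 1.21 in the limma fit over all 338 tested miRNAs. MiR-7a-5p was 1 of 50 miRNAs higher in LPS kidneys at an adjusted p under 0.05 in that fit (14.8% of those tested), 1 of 41 with every LPS array above every sham array (12.1%) and 1 of 19 called higher and at least 2-fold (5.62%). In either direction 6.80% were called at least 2-fold apart, and 37.0% did not overlap. Nothing is read from these counts for miR-7a-5p, since it was chosen by this difference. The median log2 difference of all 338 miRNAs was -0.08.

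The spread between samples was larger than the spread that the spots of an array leave. From the 26 to 30 spots averaged per array, the standard error of the log2 signal of miR-7a-5p was 0.02 to 0.04 on LPS arrays and 0.03 to 0.05 on sham arrays, against SDs between arrays of 0.08 and 0.14. Within the 4 columns of the slide, each of which held 1 array of each group, LPS minus sham was 1.20, 0.99, 0.93 and 0.98. LPS arrays all sat in row 2 of the slide and sham arrays in row 1, and these rows and the groups cannot be told apart.

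The probes of miR-7a-5p were also compared singly. On the longer probe LPS kidneys were higher by 1.04 log2 units (-2.46 ± 0.08 in LPS and -3.50 ± 0.16 in sham, SD, n = 4 each). On the shorter probe the measured means were -4.15 in LPS and -5.12 in sham kidneys, and with sham below the detection limit this is given as at least 1.51-fold higher.

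The size of the difference depended on how background was removed. With normexp background correction, which adds an offset of 50 to a signal of this brightness, the log2 difference was 0.36 instead of 1.02, 0.48 on the longer probe and 0.19 on the shorter one. An offset shrinks differences of dim miRNAs in itself, so these values do not separate background from offset. Under the other 23 alternatives the difference was 0.87 (mean over probes) to 1.10 (cyclic loess).

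**Figure D2:**
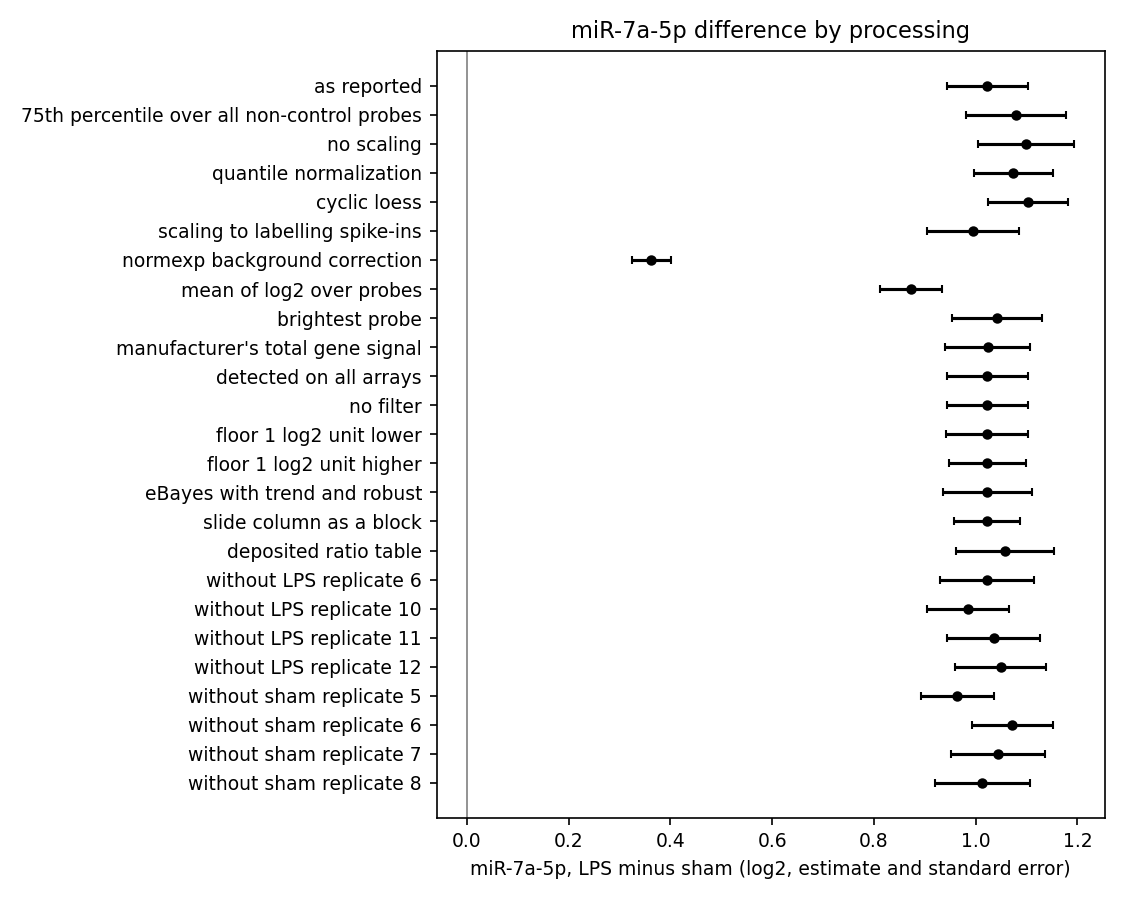
Log2 difference of miR-7a-5p, LPS minus sham (horizontal axis, points are estimates and bars standard errors), as reported and under each of 24 alternative ways of processing (vertical axis). All estimates are above 0, and that with normexp, at 0.36, lies apart from the others.

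MiR-7b-5p, the product of the third gene, was below the detection limit on every array. Its probe A_54_P2663 gave 3.97, 7.38, 3.22 and 3.17 intensity units on LPS replicates 6, 10, 11 and 12, against 2.57, 2.70, 4.30 and 2.01 on sham replicates 5, 6, 7 and 8. Its probe A_54_P2664 gave 6.37, 7.13, 4.22 and 4.90 on the same LPS arrays, against 4.05, 0.331, 1.24 and 4.71 on the same sham arrays. The groups overlapped on each probe, though the mean was higher in LPS kidneys on both. It was 4.43 in LPS against 2.90 in sham kidneys on A_54_P2663, and 5.65 against 2.58 on A_54_P2664. This difference below the detection limit was not tested. Well above background were 0 of 60 LPS spots and 0 of 55 sham spots of A_54_P2663, and 0 of 58 LPS spots and 0 of 58 sham spots of A_54_P2664. The 7 negative-control probes gave 0.758 to 2.87 on LPS arrays and 0.844 to 3.26 on sham arrays. Every LPS value of both miR-7b-5p probes lay above the LPS range. Of the sham values, only those of replicate 7 on A_54_P2663 and of replicates 5 and 8 on A_54_P2664 lay above the sham range. All of these values were still below the detection limit. By the scanner software's weaker criterion, a signal positive and different from background, 34 of 60 LPS spots and 16 of 55 sham spots of A_54_P2663 passed, as did 37 of 58 LPS and 19 of 58 sham spots of A_54_P2664. The probe that differs from A_54_P2663 at the capital base alone, A_54_P2659, was well above background on the same arrays. Brightness cannot be compared between probes as abundance, and pairing of miR-7a-5p with the miR-7b-5p probes was not tested.

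The 3p arms of the hairpins were not used in choosing the pair. They are usually the less abundant, or passenger, strands. The 3p arm of Mir7-1 is given with its brighter probe, since it is the one arm that differs between the miR-7a genes and came near detection.
miR-7a-1-3p: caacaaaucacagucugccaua
A_54_P4418 for miR-7a-1-3p: tatggcagactgtgatttg
By the rule used here, miR-7a-1-3p was detected on 2 of 4 LPS arrays, replicates 10 and 11, and on 0 of 4 sham arrays. The scanner software's own call counted miR-7a-1-3p as detected on every array. By the software's weaker criterion, 60 of 60 LPS and 60 of 60 sham spots of its brighter probe passed. Its brighter probe gave 16.5, 22.3, 19.3 and 17.1 intensity units on LPS replicates 6, 10, 11 and 12, against 14.3, 13.2, 15.0 and 13.0 on sham replicates 5, 6, 7 and 8. Each LPS array was brighter than each sham array, by little, and 28 of 60 LPS spots were well above background, against 7 of 60 sham spots. The mean log2 level of the probe was -4.79 in LPS kidneys and -5.15 in sham kidneys. Set against the dimmest detected probe of each sham array the bound came to less than 1, so it gives no fold. MiR-7a-1-3p did not pass the filter for testing. The fit without a filter, which uses sham values below the detection limit, gave a log2 difference of 0.26 (limma adjusted p = 0.210). MiR-7a-2-3p and miR-7b-3p were detected on 0 LPS and 0 sham arrays, with mean signals from -0.604 to 1.09 intensity units in LPS and from -0.549 to 1.25 in sham kidneys.

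MiR-671 is known to direct the cleavage of the circular RNA Cdr1as, which binds miR-7. MiR-671-5p had log2 levels of -1.84, -2.25, -1.88 and -1.87 on LPS replicates 6, 10, 11 and 12, against -1.41, -1.98, -1.96 and -2.03 on sham replicates 5, 6, 7 and 8. The groups overlapped, with sham replicate 5 highest and LPS replicate 10 lowest. The difference was -0.12 ± 0.15 (SE) with a 95% interval from -0.47 to 0.24 and an adjusted p = 0.565 in limma, and it was 0.026 without sham replicate 5. MiR-671-3p was detected on 0 LPS and 0 sham arrays.

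Of 16 listed miRNAs known from neurons or endocrine cells, 6 passed the detection filter, 1 rose in LPS kidneys and 0 fell, against 40.2% of all 338 tested miRNAs that changed in either direction (14.8% higher and 25.4% lower). The median log2 difference of the 6 was -0.05. MiR-9-3p, from hairpins whose other arm is the neural miR-9-5p, rose by 0.47 ± 0.16 log2 units (SE, limma adjusted p = 0.0465). Its levels on LPS replicates 6, 10, 11 and 12 were -3.32, -2.69, -2.71 and -2.67, against -3.37, -3.08, -3.29 and -3.54 on sham replicates 5, 6, 7 and 8, so LPS replicate 6 lay within the sham range. The call held in 10 of 24 alternatives, and was lost when any array other than LPS replicate 6 was left out (adjusted p = 0.0510 to 0.117). MiR-9-5p differed by 0.33 ± 0.18 (SE, limma adjusted p = 0.173), and by 0.49 without LPS replicate 6 (adjusted p = 0.0248).

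The other 4 tested members did not pass either, except that miR-128-3p (-0.16, limma adjusted p = 0.0471) and miR-219a-5p (-0.19, adjusted p = 0.0397) did without LPS replicate 10. MiR-128-3p, a miRNA enriched in brain, differed by -0.13 ± 0.06 (SE, limma adjusted p = 0.123), and miR-219a-5p, known from oligodendrocytes, by -0.13 ± 0.08 (adjusted p = 0.235). MiR-218-5p, known from motor neurons, differed by -0.08 ± 0.06 (adjusted p = 0.263), and miR-335-5p by -0.01 ± 0.12 (adjusted p = 0.962). Of the listed miRNAs, 9 were detected on 0 arrays, among them miR-375-3p, which with miR-7 is typical of islet and other endocrine cells, and miR-124-3p, the most neuron-specific of the list. MiR-129-1-3p was detected on 3 LPS and 3 sham arrays and was not tested.

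**Figure D3:**
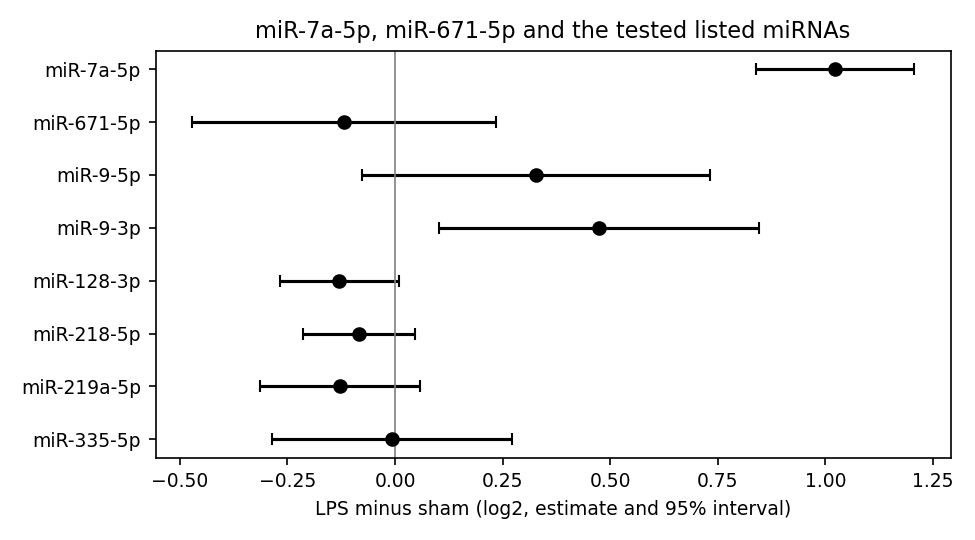
Log2 difference, LPS minus sham (horizontal axis, points are limma estimates and bars 95% intervals), of miR-7a-5p, miR-671-5p and the 6 tested miRNAs of the neuronal and endocrine list (vertical axis). The interval of miR-7a-5p, which was chosen by this difference, runs from 0.84 to 1.21 and is a description, not a test. Of the intervals of the other miRNAs shown, only that of miR-9-3p does not include 0.

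The kidney label was checked against marker miRNAs. All 6 tubule miRNAs listed (miR-192-5p, miR-194-5p, miR-204-5p, miR-30a-5p, miR-10a-5p and miR-10b-5p) were detected on all arrays, as were smooth muscle miR-143-3p and miR-145a-5p and endothelial miR-126a-3p. The liver miRNA miR-122-5p was detected on 0 arrays, as were neuronal miR-124-3p, miR-137-3p and miR-129-5p. The other 2 neuronal markers, miR-9-5p and miR-128-3p, were detected on all arrays. Of the muscle miRNAs, miR-133a-3p and miR-206-3p were detected on 0 arrays, whereas miR-1a-3p was detected on all. In LPS kidneys, 3 of the 6 tubule miRNAs fell, where 25.4% of all tested miRNAs did: miR-192-5p fell by 0.28 (limma adjusted p = 0.0277), miR-194-5p fell by 0.33 (adjusted p = 0.0107) and miR-204-5p fell by 0.19 log2 units (adjusted p = 0.0378). The other tubule miRNAs did not pass, at -0.11 for miR-30a-5p, 0.10 for miR-10a-5p and 0.11 for miR-10b-5p. The number of miRNAs called lower moved with the scaling. It was 86 as reported, 49 without scaling, 89 with scaling to labelling spike-ins and 91 with quantile normalization. The marker calls were not followed through the alternatives. Smooth muscle miR-145a-5p fell by 0.44 (limma adjusted p = 0.00278), while miR-143-3p, at 0.05, did not pass (adjusted p = 0.591). Of 4 leukocyte miRNAs, 2 rose, where 14.8% of all tested miRNAs did: miR-155-5p rose by 1.68 (limma adjusted p = 2.3e-06) and miR-223-3p by 0.86 (adjusted p = 0.000303), while the differences of 0.26 for miR-142a-3p (adjusted p = 0.171) and -0.22 for miR-150-5p (adjusted p = 0.126) did not pass. The log2 of the summed linear levels of these 4 was 1.54 to 1.66 in LPS and 0.81 to 1.29 in sham kidneys. Of the 4, miR-142a-3p, which did not pass, had the highest mean level in both groups and so the largest part in this sum. Red-cell miR-451a rose by 2.43 ± 0.71 (SE, limma adjusted p = 0.0285) and miR-144-3p by 2.46 ± 0.68 (adjusted p = 0.0235). The groups overlapped for both, and miR-144-3p was detected on only 2 sham arrays. The log2 of their summed linear levels was 1.01 to 3.78 in LPS and -0.97 to 1.64 in sham kidneys. For the 5 neuronal markers the log2 of the summed linear levels was -1.50 to -1.21 in LPS and -1.48 to -1.26 in sham kidneys. The part of leukocytes and red cells in the miR-7a-5p difference was not tested.

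The miRNAs whose log2 levels followed miR-7a-5p most closely over the 8 arrays were miR-21a-5p, which rises in injured kidney, with Pearson's r = 0.991, miR-155-5p of activated macrophages (0.991), miR-20a-5p of the miR-17-92 cluster (0.986), miR-21a-3p (0.982) and miR-92a-3p of the same cluster as miR-20a-5p (0.980). All of them were higher in LPS kidneys, and a coefficient over all arrays mostly reflects the step between the groups. After subtraction of each group's mean, the coefficients over the same 8 arrays were 0.83 for miR-21a-5p, 0.70 for miR-155-5p, 0.77 for miR-20a-5p, 0.13 for miR-21a-3p and 0.85 for miR-92a-3p. MiR-21a-3p was detected on 0 sham arrays, and its sham levels were at or close to the floor of -4.68. Both of its coefficients depend in part on that floor. All levels of an array share its scaling and its RNA sample. The log2 difference was 2.22 for miR-21a-5p, 1.68 for miR-155-5p, 0.59 for miR-20a-5p and 0.53 for miR-92a-3p.

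**Figure D4:**
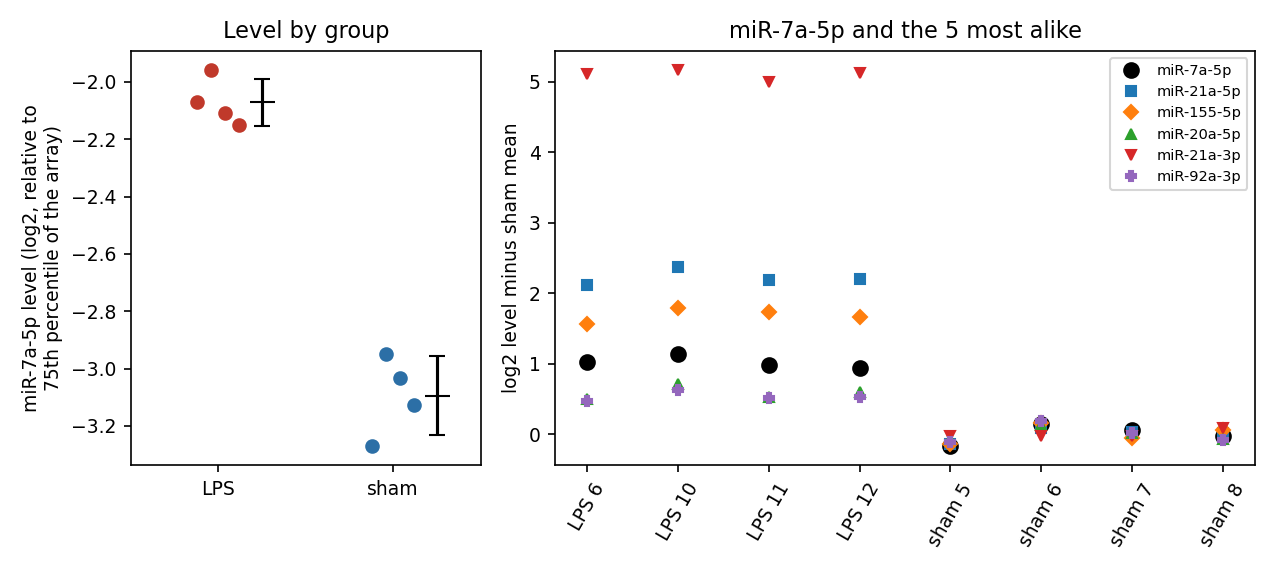
Left, log2 level of miR-7a-5p after scaling (vertical axis) on each LPS and sham array, with the mean and SD beside the points; right, log2 level minus the sham mean (vertical axis) on each array (horizontal axis) for miR-7a-5p and the 5 miRNAs most alike. The 4 LPS arrays lie between -2.15 and -1.96 and the 4 sham arrays between -3.27 and -2.95; the sham points of miR-21a-3p are at or close to the floor of -4.68, on which its height in LPS kidneys therefore depends.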

How the data were processed

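Total RNA (100 ng, labelled with Cy3) was hybridised to 1 array per sample. The authors deposited spot intensities, background-subtracted with spatial detrending and not scaled between arrays, per the file headers. Images were read with Agilent Feature Extraction 12.0.3.1, per the submitters' processing notes. A deposited table of linear ratios per miRNA and array served as an alternative. With 1 factor per miRNA and array, 100% of its values for 383 miRNAs lay within 0.01 log2 of the scanner software's total signal, so its ratios are linear, rescaled per miRNA and per array by factors whose origin stays unknown.

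Here, outlier spots were left out, spots of a probe averaged, and arrays divided by the 75th percentile over 551 probes detected on all arrays. Probes of a miRNA were summed, floored at -4.68 and log2-transformed. The 338 miRNAs detected on every array of a group were fitted with limma 3.58.1 in R 4.3.3 (2-sided, Benjamini-Hochberg over all 338, threshold 0.05), after the script had been tested on simulated data. Each array detected 336 to 375 miRNAs, and 8 arrays limit the precision. No non-control spot was saturated. All arrays lay on 1 slide, read in 1 scan. Bounds compare a bright group with the higher of the dimmest detected probe and the dim probe itself, per array.

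Members and lists were chosen with earlier results of these data known. Named are the pair, the 3p arms, miR-671, tested members of the list, the markers and the 5 miRNAs most correlated with miR-7a-5p. MiR-7b-5p, below the detection limit, was not fitted. Alternatives covered scaling, background, probe summary, filter, floor, variance model, slide column, the ratio table and leaving out each array.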

Additional observations from a re-analysis of the deposited data

Results flagged for a closer look

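Among 24 sets of 4 same-group values, 5 had 1 value standing well away from the rest. About 1.20 such sets would arise by chance. None of these concerned miR-7a-5p or its probes. For miR-671-5p, LPS replicate 10 lay at -2.25 with the other LPS arrays between -1.88 and -1.84, and sham replicate 5 at -1.41 with the other sham arrays between -2.03 and -1.96. For miR-9-3p, LPS replicate 6 lay at -3.32 with the other LPS arrays between -2.71 and -2.67. For miR-128-3p, sham replicate 5 lay at -3.19 with the others between -3.08 and -3.06. For miR-218-5p, sham replicate 7 lay at 0.11 with the others between -0.02 and -0.01.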

How the results depend on the processing

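The log2 difference of miR-7a-5p, a description, ranged over 24 alternatives from 0.36 with normexp to 1.10 with cyclic loess, and from 0.96 to 1.07 when an array was left out. MiR-7b-5p was detected on 0 of 8 arrays in the scanner software's total signal too, and with no detected level the difference between miR-7a-5p and miR-7b-5p was not run. The number of tested miRNAs that changed was 136 as reported, 60 without a filter, 80 with slide column as a block and 85 to 152 when an array was left out (85 without sham replicate 6 and 88 without LPS replicate 12). Higher and lower calls numbered 50 and 86, against 55 and 53 with the percentile over all probes, 57 and 49 without scaling, 65 and 66 with cyclic loess and 46 and 53 in the ratio table. Lower calls stayed the more numerous with scaling to labelling spike-ins (45 higher and 89 lower), quantile normalization (53 and 91) and normexp (36 and 85). The neuronal and endocrine list held 1 call as reported, 0 in 13 alternatives, among them quantile normalization, normexp, the total signal, no filter, the higher floor, slide column and the ratio table, and 0 to 2 when an array was left out (miR-9-3p and miR-9-5p without LPS replicate 6, miR-128-3p and miR-219a-5p without LPS replicate 10). The log2 difference of miR-671-5p ranged from -0.18 to 0.026 when an array was left out, and was 0.026 without sham replicate 5. Alternatives for miR-9-3p, miR-671-5p and single probes were chosen after seeing the data. Samples could not be paired by their labels, because the groups share only 1 replicate number. The slide column is a position, not a shared animal or batch in the labels, and served as a block only.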

Other observations

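In the authors' deposited ratio table, miR-7a-5p stood at 1.36, 1.54, 1.43 and 1.33 on LPS replicates 6, 10, 11 and 12, against 0.584, 0.740, 0.754 and 0.651 on sham replicates 5, 6, 7 and 8. Its miR-7b-5p ratios equal the median of the column on every array (0.958, 0.960, 1.01 and 1.03 on the same LPS arrays and 0.995, 1.06, 1.05 and 0.980 on the same sham arrays), so they carry the factor of the array and no measurement of miR-7b-5p.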
